A study of Mus musculus with 6 samples.

Results

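The 9 genes described here mark the inhibitory neurons of the brain. *Gad1* and *Gad2* encode the glutamate decarboxylases that make GABA, *Slc32a1* encodes the transporter that loads GABA into synaptic vesicles, and *Pvalb*, *Calb2*, *Sst*, *Vip*, *Npy* and *Reln* are the usual markers of interneuron classes. They were chosen by name, as the probes of the array whose gene symbol is 1 of the 9. This gave 11 probes out of 19397 with a gene symbol, since *Gad1* and *Calb2* have a pair of probes each. Brains of male BALB/c mice aged 12 weeks, an inbred strain, were compared. All mice ate the same custom-made normal diet for 6 weeks, and 3 controls drank distilled water while 3 treated mice drank oil palm phenolics (OPP), a water-soluble extract, at 1500 ppm gallic acid equivalent. Each brain was hybridized to 1 Illumina MouseRef-8 array, on which the intensity of a probe reports the amount of its transcript. Whether all of each brain was extracted was not given in the sources used here. The RNA samples had been selected for integrity, and outlier arrays had been removed by clustering before these 6 were kept. Mice were caged in groups of the same size as a treatment group, so a cage effect and the treatment cannot be told apart if each group shared a cage.

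GABA is the main inhibitory transmitter of the forebrain, and glycine shares that role in the brainstem and spinal cord. A GABA neuron makes its transmitter from glutamate, packs it into vesicles, releases it onto GABA receptors and recovers it, with astrocytes, by membrane transporters. Cortical and hippocampal interneurons fall into classes that contain parvalbumin, somatostatin or vasoactive intestinal peptide, with calretinin, neuropeptide Y and reelin marking further or overlapping classes. None of the 9 genes is restricted to the cortex. Striatal projection neurons and Purkinje cells also make GABA, parvalbumin is abundant in the cerebellum, and calretinin and reelin are found in cerebellar granule cells. In RNA of a whole tissue, fewer cells of a type and less RNA per cell cannot be told apart.

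A probe counts as above background on an array at a detection level over 0.99, and it was tested if its mean detection level passed this in at least 1 group. Of the 9 genes 7 were tested (9 of the 11 probes), among 5808 genes in all. Levels are intensities scaled between the arrays, in array units, and differences are on the log2 scale, with mice given OPP minus controls. Among the 6 arrays control replicate 2 stood apart, correlating at 0.961 and 0.962 with the other controls, which correlated at 0.987 with each other. *Slc32a1* and *Calb2* were lower after OPP at an unadjusted p under 0.05 in limma, which makes 2 of 7 genes against 2.26% of all genes tested. None of the 7 was higher at that level, against 1.88% of all genes. None passed when adjusted over all probes by the method of Benjamini and Hochberg, against 0.0172% of all genes in the downward and 0% in the upward direction. *Slc32a1* and *Calb2* were also the 2 of 7 genes whose groups did not overlap, both downward, where 5.04% of all genes lay that way. None lay apart upward, against 4.72%. The median difference of the 7 genes was -0.31 on the log2 scale, 0.00 over all genes tested, and for the 7 it was -0.06 without control replicate 1 and -0.31 without control replicate 2. With 3 brains a group, the smallest p of an exact two-sided permutation test is 0.1, which the *Slc32a1* probe and both *Calb2* probes gave.

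**Figure D1:**
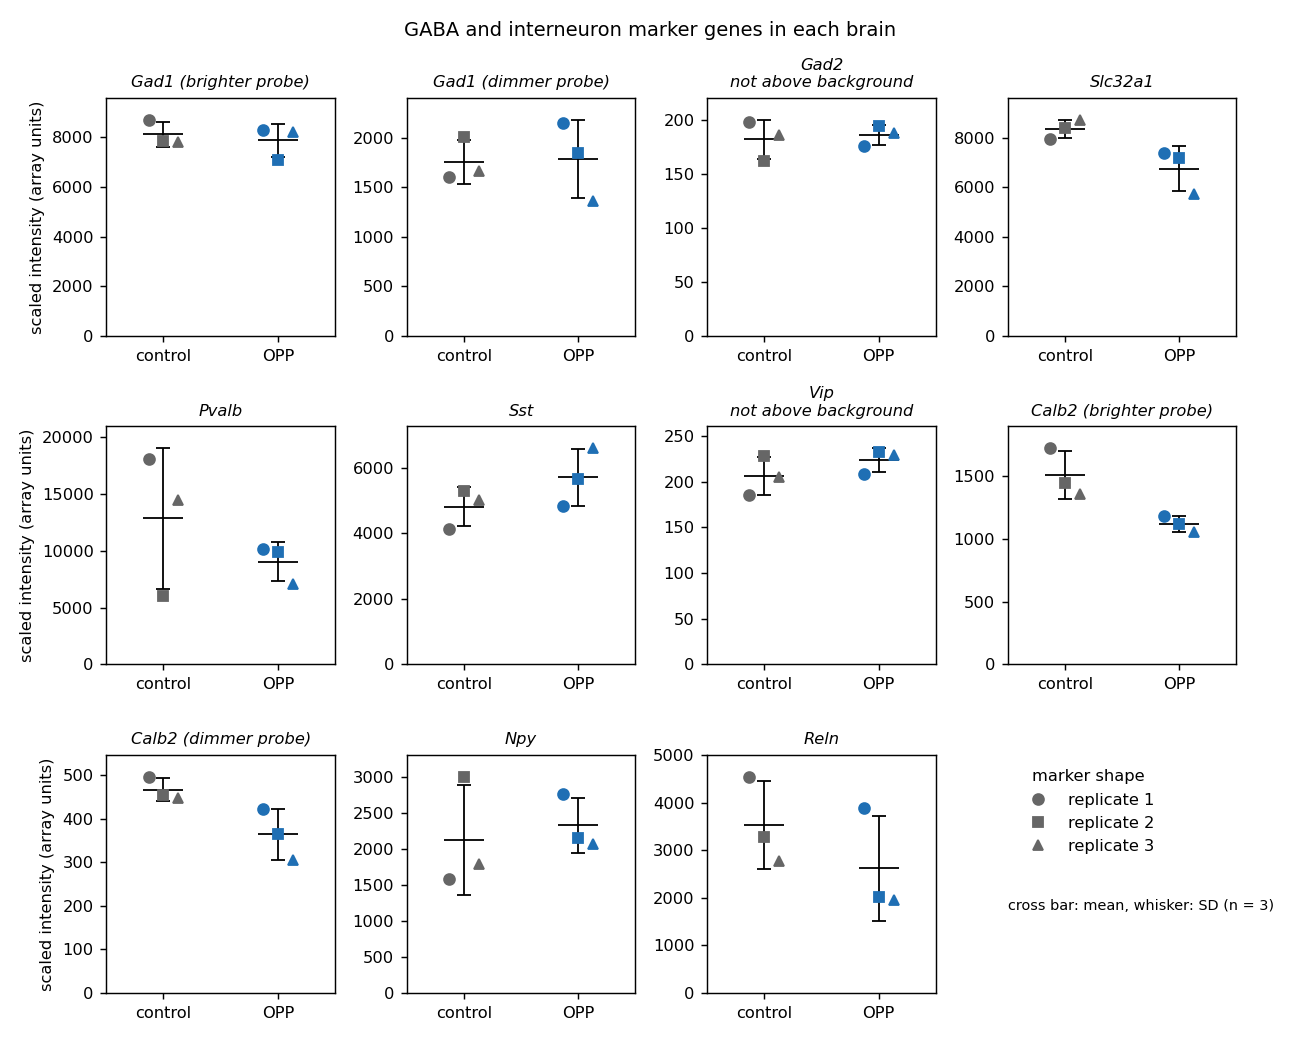
Scaled intensity (array units, axes from 0) of each of the 11 probes in the 3 controls and the 3 mice given OPP, with replicate shown by marker shape, the mean as a cross bar and the SD as a whisker. Each mouse given OPP lies below each control on the *Slc32a1* probe and on both *Calb2* probes, and the groups overlap on the other 8 probes.

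*Gad1* encodes the larger glutamate decarboxylase, which makes most of the brain's GABA. By its brighter probe it had the smallest spread within the groups of the 7 genes (SD 0.11 on the log2 scale). Its brighter probe read 8711, 7859 and 7800 in controls and 8294, 7099 and 8227 under OPP. The highest brain was 1.23 times the lowest, and the groups overlapped, with control replicate 1 the highest brain and OPP replicate 2 the lowest. The difference was -0.05 on the log2 scale (standard error 0.11, 95% interval -0.29 to 0.20, adjusted p = 0.995 from limma). The dimmer probe of *Gad1* read 1603, 2014 and 1664 in controls and 2150, 1850 and 1364 under OPP (SD 0.18 and 0.33 on the log2 scale). It ordered the brains differently from the brighter probe, with a difference of 0.00 (standard error 0.17, 95% interval -0.38 to 0.39). The sign of the brighter probe's difference turned without OPP replicate 2 (0.03) and without scaling between arrays (0.01).

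*Gad2*, which encodes the smaller decarboxylase found at nerve terminals, was not above background in any brain on its only probe. The probe read 198, 162 and 186 in controls and 176, 194 and 188 under OPP. At such levels no difference can be read. A probe that stays at background does not show that its transcript was missing from these brains.

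*Slc32a1*, the vesicular GABA transporter gene, was lower in mice given OPP by limma's unadjusted p (0.0283), but not when adjusted. It read 7956, 8401 and 8715 in controls and 7373, 7182 and 5734 under OPP. The groups did not overlap, the lowest control lying 7.92% above the highest mouse given OPP. OPP replicate 3 was the lowest brain. The means were 8358 ± 381 (SD, n = 3) and 6763 ± 896 (SD, n = 3), a difference of -0.31 on the log2 scale (standard error 0.12, 95% interval -0.59 to -0.04, adjusted p = 0.986 from limma). It shrank to -0.20 without OPP replicate 3 and was -0.28 without control replicate 3, neither passing unadjusted, and it was -0.38 without OPP replicate 1. On the authors' background-subtracted values it was -0.32 with groups that did not overlap, and did not pass unadjusted either.

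To set *Slc32a1* beside *Gad1*, the log2 difference of the 2 genes was taken within each brain, on the brighter *Gad1* probe. That difference was -0.13, 0.10 and 0.16 in controls and -0.17, 0.02 and -0.52 under OPP. The groups overlapped, the means being 0.04 ± 0.15 (SD, n = 3) and -0.22 ± 0.27 (SD, n = 3; exact two-sided permutation test, p = 0.2). At 3 brains a group this test cannot give a p under 0.1. It could therefore not decide whether the transporter transcript differed by more than that of the decarboxylase.

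*Calb2* encodes calretinin, a calcium-binding protein of interneurons that often contact other interneurons, and also of granule cells and thalamic neurons. Its brighter probe read 1721, 1439 and 1355 in controls and 1177, 1117 and 1052 under OPP. The 3 mice given OPP lay close together and all below the controls, the lowest control being 15.2% above the highest of them. The means were 1505 ± 192 (SD, n = 3) and 1115 ± 62.5 (SD, n = 3), so that controls were 1.34 times as high. On the log2 scale the difference was -0.43 (standard error 0.12, 95% interval -0.69 to -0.16, unadjusted p = 0.00522, adjusted p = 0.986 from limma). By its unadjusted p this probe stood at place 28 of 7611. Leaving out 1 brain moved the difference between -0.50 and -0.33, and *Calb2* passed unadjusted in each of the 15 alternatives that were run on this probe. Dropping the lower limit on intensities, 1 of the 15, left the fit unchanged.

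The dimmer probe of *Calb2* read 497, 455 and 448 in controls and 422, 364 and 306 under OPP. On these scaled values it ordered the 6 brains exactly as the brighter probe did. Without scaling it did not, reading 422, 349 and 349 under OPP against 1178, 1073 and 1198 on the brighter probe. Its difference was -0.37 (standard error 0.13, unadjusted p = 0.0188 from limma), and -0.72 on the authors' background-subtracted values, where controls were 1.65 times as high. Background makes up more of the intensity of a dim probe, and the brighter probe moved less, to -0.50. Without control replicate 1 the difference of the dimmer probe was -0.32, and without OPP replicate 3 it was -0.25, neither passing unadjusted. Both probes were measured on the same RNA, so that the second is not a further sample of mice.

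*Pvalb*, which encodes the calcium-binding protein of fast-spiking interneurons, of Purkinje cells and of cerebellar molecular layer interneurons, had the largest spread of the 7 genes. It read 18042, 6019 and 14464 in controls and 10153, 9905 and 7060 under OPP. Control replicates 1 and 3 were the highest brains and control replicate 2 the lowest, so that the mice given OPP lay between the controls. The highest brain was 3.00 times the lowest. Within the groups the SD was 0.63 on the log2 scale, at or above that of 99.2% of all genes tested, against a median of 0.14. The difference of -0.38 (standard error 0.35, 95% interval -1.17 to 0.40) was -0.06 without control replicate 1. Without control replicate 2 it was -0.86, and then passed unadjusted but not adjusted, as it did with array weights on all 6 brains (-0.60).

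*Reln*, which encodes the secreted glycoprotein reelin of interneurons and of cerebellar granule cells, read 4555, 3283 and 2771 in controls and 3892, 2009 and 1964 under OPP. OPP replicate 1 lay among the controls, and the other two were the lowest brains. The difference was -0.48 (standard error 0.27, 95% interval -1.08 to 0.13, adjusted p = 0.986 from limma). It was -0.80 without OPP replicate 1 and -0.28 without control replicate 1.

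**Figure D2:**
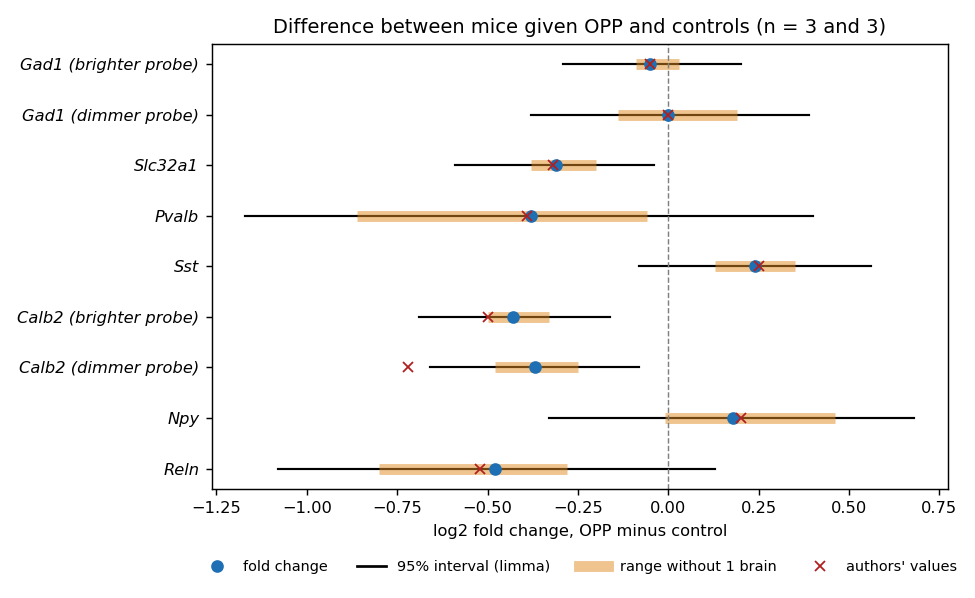
Log2 fold change (mice given OPP minus controls, horizontal axis) of the 9 tested probes, with the 95% interval from limma as a thin line, the range over fits without 1 brain as a thick line and the value on the authors' background-subtracted intensities as a cross. The intervals of *Slc32a1* and of both *Calb2* probes lie below 0, and the range without 1 brain is wide for *Pvalb* (-0.86 to -0.06) and crosses 0 for *Gad1* and *Npy*.

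Of the neuropeptide genes, *Sst* and *Npy* were above background in all 6 brains and *Vip* in none. *Sst* encodes somatostatin, the peptide of interneurons that contact dendrites. It read 4143, 5284 and 5019 in controls and 4843, 5672 and 6606 under OPP. OPP replicates 2 and 3 were the highest brains and control replicate 1 the lowest. The difference was 0.24 (standard error 0.14, 95% interval -0.08 to 0.56, adjusted p = 0.986 from limma), 0.13 without OPP replicate 3 and 0.35 without OPP replicate 1.

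*Npy*, which encodes neuropeptide Y of cortical, hippocampal and striatal interneurons and of the hypothalamus, read 1583, 3004 and 1783 in controls and 2756, 2144 and 2073 under OPP. Control replicate 2 was the highest brain and the other controls were the lowest. The difference of 0.18 (standard error 0.22, 95% interval -0.33 to 0.68) was 0.46 without control replicate 2, where it passed unadjusted, and -0.01 without control replicate 1. *Vip*, which encodes vasoactive intestinal peptide of interneurons that inhibit other interneurons, read 186, 228 and 205 in controls and 209, 233 and 229 under OPP. Its lowest detection p-value, in OPP replicate 3, was 0.0796, so that no brain held a level that could be read.

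*Sst* is a textbook example of a gene with a cAMP response element (CRE), the site bound by the transcription factor CREB, near its start. The 3 peptide genes are shown for this element, with *Slc32a1*, whose groups did not overlap. RefSeq (GRCm38.p6) gave a promoter window for 8 of the 9 genes and none for *Calb2*. Each window printed here is set on 1 start of its gene, which for *Sst*, *Vip* and *Slc32a1* lies inside the outer bounds of the annotated gene. The 120 bases before that start are printed 5′ to 3′ on the strand of the gene, with capitals for a full CRE (TGACGTCA), the CRE core (TGACG on either strand) or a TATA box (TATAAA).
Sst, chr16:23890845-23890964, minus strand: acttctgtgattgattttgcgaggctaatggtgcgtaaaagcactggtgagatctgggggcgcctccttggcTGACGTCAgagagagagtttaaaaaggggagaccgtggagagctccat
Vip, chr10:5639098-5639217, plus strand: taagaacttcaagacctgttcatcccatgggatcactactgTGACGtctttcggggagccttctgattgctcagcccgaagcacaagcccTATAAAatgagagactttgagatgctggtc
Npy, chr6:49822590-49822709, plus strand: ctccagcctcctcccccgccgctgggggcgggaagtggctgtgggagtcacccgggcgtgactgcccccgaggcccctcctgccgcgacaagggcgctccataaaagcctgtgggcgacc
Slc32a1, chr2:158610638-158610757, plus strand: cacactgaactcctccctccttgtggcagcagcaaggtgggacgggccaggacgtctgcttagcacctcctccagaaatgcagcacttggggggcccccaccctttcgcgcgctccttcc

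The full CRE of *Sst* starts 48 bases before the start of transcription and contains the core on both strands. *Vip* has a CRE core 79 bases and TATA boxes 157, 147 and 30 bases before the start. Over the 250 bases upstream of all 32851 promoter windows, both strands searched, 1.55% hold the full CRE, 17.8% the core, which every full CRE also contains, and 12.4% the TATA box. Of the other members with a window, *Gad2* has a CRE core 33 bases before the start, and *Gad1* a TATA box 141 bases before it. *Npy*, *Slc32a1*, *Pvalb* and *Reln* hold none of these letters in the 250 bases, which says nothing about the factors that act on them. A match is a description of the sequence and not a site that was measured here. Among the members, *Gad1*, *Gad2* and *Slc32a1* lie on chromosome 2, far from each other.

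The order of the brains was set beside marker genes of brain regions, with members left out of each list. The mean of the 6 tested genes typical of the cerebellum (of 14 on the array) ordered the 6 brains exactly as *Pvalb* did, whereas the single genes ordered them otherwise. Relative to the mean of the controls, their mean was 0.50, -0.72 and 0.21 on the log2 scale in controls and -0.13, -0.21 and -0.49 under OPP, while *Pvalb* lay at 0.63, -0.95 and 0.32 and at -0.20, -0.23 and -0.72. The summed intensity of these 6 genes ran from 3946 to 13833 in the controls and from 5236 to 6718 in the mice given OPP. Among them were *Cbln1*, which encodes the synapse organizer of granule cells, and *Zic1*, a transcription factor gene of granule cells, whereas *Gabra6* and *Cbln3* were not above background in any brain. *Pcp2* and *En2*, also untested, were above background in 2 controls and 2 mice given OPP each. Their mean intensities were 1400 and 1089 in controls and 630 and 554 under OPP. All 6 tested genes lay below 0 in the mice given OPP, and 0 passed unadjusted. The median of these 6 was -0.23, but 0.01 without control replicate 1 and -0.49 without control replicate 2. How far cerebellar content enters the values of *Pvalb* was not tested.

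The mean of the 9 tested striatal genes (of 11 on the array) ordered the brains as *Npy* did apart from the 2 highest brains, which changed places. The means of the microglia list and of the other interneuron markers ordered the brains exactly as *Npy* did. Not every single gene of these lists had the order of its mean. The mean of the striatal genes was -0.48, 0.54 and -0.07 in controls and 0.70, 0.30 and -0.03 under OPP, while *Npy* lay at -0.37, 0.56 and -0.19 and at 0.43, 0.07 and 0.02. The summed intensity of the striatal genes ran from 4710 to 10133 in the controls and from 6839 to 12004 in the mice given OPP. All 9 lay above 0 and 0 passed unadjusted, with a median of 0.34 (0.11 without control replicate 1, 0.55 without control replicate 2). The part of striatal or microglial content in the values of *Npy* was not tested.

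*Slc32a1* and *Calb2* ordered the brains otherwise. Control replicate 2, lowest among the controls in the mean of the cerebellar genes, read 0.01 in *Slc32a1* and -0.06 in *Calb2*, against -0.95 in *Pvalb*. Without control replicate 2 the differences of *Slc32a1* and *Calb2* were -0.31 and -0.46. On the scaled values both were lowest in OPP replicate 3, the array with the smallest scaling factor (0.877). Without scaling *Slc32a1* was still lowest there, but the brighter *Calb2* probe read 1178, 1073 and 1198 under OPP. On the scaled values of OPP replicate 3, the means of the 5 tested astrocyte genes (-0.43) and 6 endothelial genes (-0.30) were also lowest. So were those of 7 blood cell genes (-1.72) and 5 olfactory bulb genes (-0.40). Highest there were the means of 7 thalamic genes (0.54), of the genes of glutamate neurons (0.25) and of receptors and targets of the members' products (0.13). Like *Slc32a1* and *Calb2*, the mean of the 7 tested genes of GABA uptake, breakdown and precursor supply was below each control in each mouse given OPP. It was 0.03, 0.00 and -0.04 in controls and -0.06, -0.13 and -0.06 under OPP. The mean of the blood cell genes lay that way too. *Ltf*, *S100a9* and *Camp* in it entered through the controls, so its direction was partly fixed by the detection filter. In *Lcn2*, *Hba-a1* and *Alas2* of that list the groups overlapped. The mean of the 10 tested general neuron markers lay between -0.06 and 0.09 in the 6 brains, single genes varying more, and their median difference was 0.01. The 7 tested oligodendrocyte genes had a median difference of -0.23, with 0 of 7 passing unadjusted. The part of any of these in *Slc32a1* and *Calb2* was not tested.

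**Figure D3:**
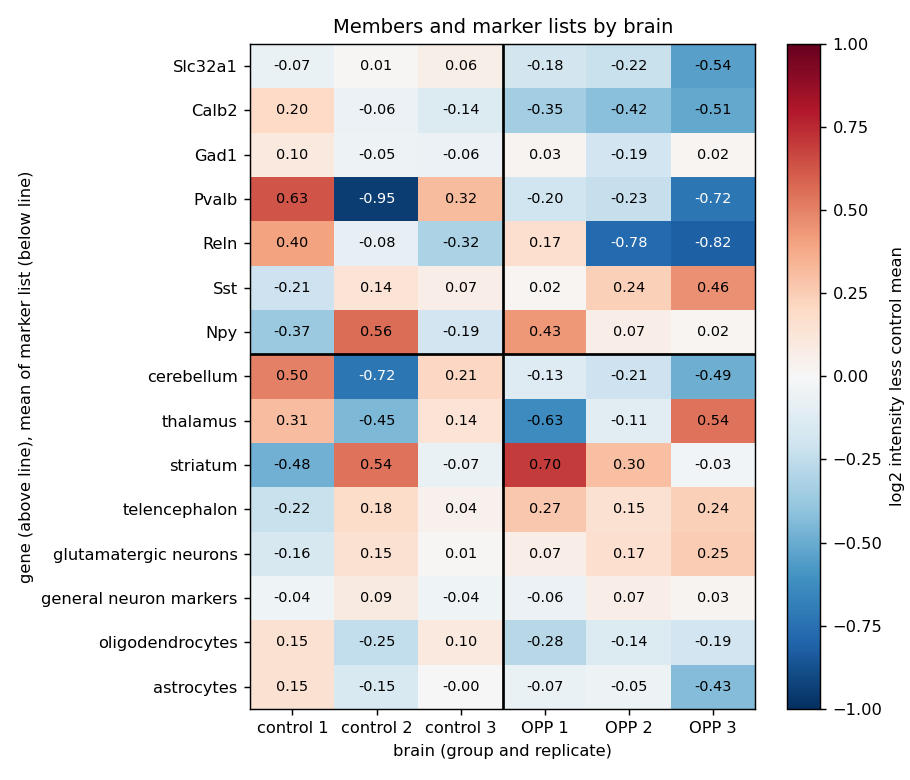
Log2 intensity less the mean of the 3 controls (colour and printed value) in each of the 6 brains, for the 7 tested genes above the horizontal line and for the mean of tested marker genes of regions and cell types below it. *Pvalb* and the mean of the cerebellar genes are lowest in control 2 (-0.95 and -0.72) and highest in control 1 (0.63 and 0.50). On these scaled values *Slc32a1* and *Calb2* are lowest in OPP 3 (-0.54 and -0.51).

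Of 7 tested genes of GABA uptake, breakdown and precursor supply, 0 passed unadjusted in either direction, 5 lay below 0 and the median difference was -0.15. *Slc6a11*, the GABA transporter gene of astrocytes, had a difference of -0.25 (standard error 0.15), *Slc6a13*, a further GABA transporter gene, -0.18 (standard error 0.14), and *Slc38a5*, a glutamine transporter gene, -0.24 (standard error 0.11). *Abat*, which encodes the transaminase that breaks GABA down, had one of -0.02 (standard error 0.18), and *Glul*, which encodes glutamine synthetase, 0.19 (standard error 0.19).

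At the receiving side, 0 of 6 tested genes of chloride transport, the GABA-B receptor and the inhibitory synapse passed unadjusted, with a median difference of -0.03. *Gabbr1*, which encodes a GABA-B receptor subunit, had a difference of -0.21 (standard error 0.21), and *Gphn*, which encodes the scaffold gephyrin, -0.18 (standard error 0.13). Receptors of the members' own products were mostly below background, as 5 of 12 genes on the array were tested and 0 passed unadjusted. *Sstr2*, a somatostatin receptor gene, had a difference of 0.27 (standard error 0.12), *Npy1r*, a neuropeptide Y receptor gene, 0.13 (standard error 0.10), and *Vldlr* and *Dab1*, which encode a reelin receptor and its adaptor, -0.18 (standard error 0.13) and 0.14 (standard error 0.12). Both receptor genes of vasoactive intestinal peptide on the array, *Vipr1* and *Vipr2*, were not above background in any brain.

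Of further interneuron genes, 6 tested transcription factor genes had a median difference of -0.02 with 0 passing unadjusted, among them *Dlx1* (-0.01, standard error 0.35) and *Dlx2* (0.12, standard error 0.40). In 11 other tested interneuron markers the median difference was 0.17, and it was 0.01 without control replicate 1 and 0.29 without control replicate 2. *Cck*, which encodes the peptide cholecystokinin of a further interneuron class and of pyramidal cells, had a difference of 0.32 (standard error 0.22). It ran from 0.11 to 0.63 over fits without 1 brain, control replicates 1 and 2 giving these ends. *Cnr1*, which encodes the cannabinoid receptor on the terminals of those interneurons, was the 1 marker with an unadjusted p under 0.05, downward. It was tested only because the controls passed the detection filter, so its direction was fixed by that filter and counts as a description. It was above background in 2 of 3 controls and in 0 of 3 mice given OPP, at mean intensities of 325 and 262. The ratio of the means was 1.16 with each mouse given OPP set to the lowest intensity above background on its array where its own was lower. The control that was not above background kept its own intensity, so the ratio is not a lower bound. *Calb1*, which encodes calbindin, was not above background in any brain. Of 2 tested genes of glycine neurons, 0 passed unadjusted.

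Genes of glutamate neurons were compared as the counterpart. The 5 tested had a median difference of 0.32, which was 0.05 without control replicate 1 and 0.69 without control replicate 2. *Slc17a7*, the vesicular glutamate transporter gene of the cortex, had a difference of 0.32 (standard error 0.30; 0.03 to 0.71 without 1 brain). *Slc17a6*, that of the thalamus and brainstem, had one of -0.51 (standard error 0.50; -0.96 to 0.09 without 1 brain). *Nrgn*, which encodes neurogranin of cortical and hippocampal spines, was the 1 gene of these that passed unadjusted by its brightest probe (0.67, standard error 0.21). A dimmer tested probe of *Camk2a*, in the same list, also passed (0.50, standard error 0.19), where its brightest probe did not (0.37, standard error 0.27). Of 19 lists compared, those with other genes that passed unadjusted were the telencephalon (*Rprm* and *Mef2c*, higher), the endothelium (*Vwf* and *Esam*, lower), the hypothalamus and olfactory bulb (*Trh*, in both, lower) and blood cells (5 genes, among them *S100a8*, *S100a9*, *Ltf* and *Camp*, lower). On the dimmer tested probe of *Mef2c* the difference was 0.03 (standard error 0.11). *Ltf* was above background in 3 controls and 0 mice given OPP, and *S100a9* and *Camp* in 3 and 1. These genes of the blood cell list thus entered through the controls. Control replicate 2 was highest in blood cell genes, and without it the median of that list was -0.74 instead of -1.65.

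**Figure D4:**
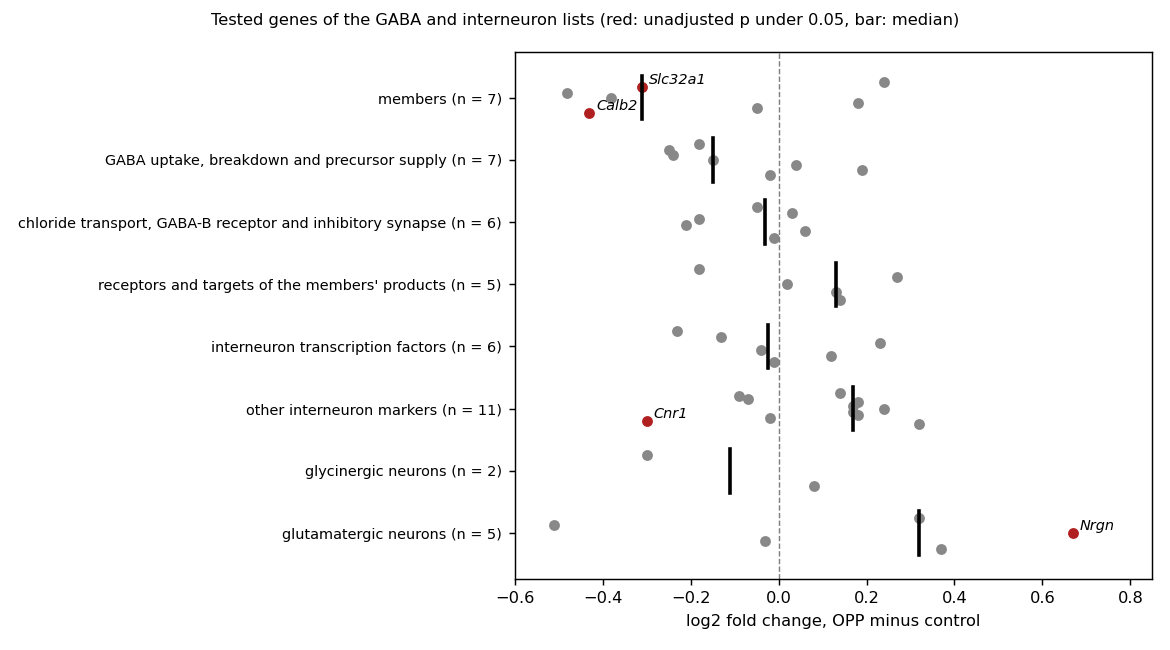
Log2 fold change (mice given OPP minus controls, horizontal axis) of each tested gene in 8 groups of genes, with red for an unadjusted p under 0.05 in limma, grey for the rest and a bar at the median of the group. The medians run from -0.31 for the 7 genes described here to 0.32 for the 5 genes of glutamate neurons, and no gene shown passed when adjusted.

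The genes whose levels over the 6 brains were most like those of *Slc32a1* and *Gad1* were found by the root mean square difference of log2 values, each less its own mean, among 5807 other genes. For *Slc32a1* these were *Dohh* (0.034), *Got1* (0.062), *Iscu* (0.063), *Cd99* (0.064) and *Cdk5rap3* (0.064), where the median over all genes was 0.233 and the root mean square of *Slc32a1* itself 0.198. *Dohh* read 566, 620 and 663 in controls and 535, 537 and 435 under OPP. For *Gad1* they were *Fcho2* (0.026), *Epc1* (0.029), *Ankfy1* (0.032), *Apobec3* (0.033) and *Taf1a* (0.033), against 0.165 over all genes and 0.092 for *Gad1* itself. No other member was among these genes. Nothing on shared function or control follows from such likeness.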

How the data were processed

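The authors summarised the beads of each probe on the arrays with BeadStudio (version 1.5.1.3 per the labels) and deposited, per probe and array, an intensity without background subtraction and its detection p-value. The detection level is 1 minus that p-value. They also deposited rank-invariant normalised, background-subtracted intensity values of the same arrays, which proved to be a linear function of the intensities (residuals of at most 0.1), with 174.4 to 208.9 units of background removed. Of 24048 probes, 19397 had 1 gene symbol in the platform annotation, 4651 had none (the 18S rRNA control probe counted here) and 0 had several.

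Intensities were scaled to the mean array on rank-invariant probes (percentile 50 to 90, rank change under 5%, factors 0.877 to 1.041), set to at least 10 and taken to log2. Probes whose mean detection level passed 0.99 in a group, 7611 in all, were fitted with limma 3.58.1 in R 4.3.3 (lmFit and eBayes, control against OPP) and adjusted by Benjamini-Hochberg over all of them. The brightest tested probe stood for a gene. Between 7442 and 7903 probes were above background per array, and the number of arrays limits the precision. Replicates are RNA samples of separate brains per the methods. The p-values measure the spread between the brains kept after selection for RNA integrity and removal of outlier arrays. No scan or slide labels were given in the sources used here.

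The text names the 9 members, in other lists the genes at an unadjusted p under 0.05 (at most 4 a list) with *Slc17a7*, *Slc17a6*, *Cck* and *Calb1* (a further gene of this rule is not reported here), and the 5 genes most like *Gad1* and *Slc32a1*. Further list genes given as examples were chosen after their values were seen. Members and lists were chosen with earlier results of these data known. The fit was tested on simulated data with planted changes larger than those of the members, so that changes of the members' size were not covered. The alternatives were other scalings and backgrounds, filters, weights, a replicate block, 1 value per gene and fits without 1 brain. The slide as a block was not run.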

Additional observations from a re-analysis of the deposited data

How the results depend on the processing

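No alternative brought a member to an adjusted p under 0.05, and the direction of the 7 tested members held in 108 of 112 refits. Part of these refits could not turn a direction. Dropping the lower limit of 10, changing the detection filter or adding the replicate block leaves a probe's difference as it was. For genes with 1 tested probe, so does 1 value per gene. *Gad1* turned to 0.01 without scaling between arrays, to 0.03 without OPP replicate 2 and to 0.00 without control replicate 1, where *Npy* turned to -0.01. Without 1 brain *Gad1* ran from -0.09 to 0.03 and *Npy* from -0.01 to 0.46. The number of members lower at an unadjusted p was 1 (*Calb2*) without scaling, with quantile normalization, with neqc and on the authors' values, and 1 to 3 without 1 brain (1 without control replicate 3 or OPP replicate 3; 3 without control replicate 2, with *Pvalb*, and without OPP replicate 1, with *Reln*). With array weights 3 members were lower, *Pvalb* being added. The number higher was 0 to 1 without 1 brain (*Npy* without control replicate 2, *Sst* without OPP replicate 1). The median of the members was -0.38 to -0.06 without 1 brain, the latter without control replicate 1. Over all probes 145 were higher and 155 lower unadjusted. This became 147 and 71 without scaling (67.4% higher instead of 48.3%), 463 and 429 with no filter on detection, and 352 and 389 with array weights. Without 1 brain it was 78 to 356 and 89 to 415, the highest numbers without control replicate 2 (356 and 415), the lowest without control replicate 1 (78 higher) and OPP replicate 3 (89 lower).

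The replicate numbers did not pair the brains (correlations of the deviations of same-numbered arrays -0.27, 0.05 and 0.17). With the number as a replicate block 111 probes were higher and 141 lower, and 3 members were lower, *Reln* being added at its unchanged difference of -0.48. A fit with the slide as a block was not run, as no slide was given in the sources used here. Probes at or near background, such as those of *Gad2* and *Vip*, limit what can be said of these genes.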
